A study of Homo sapiens with 8 samples.

Results

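HRAS and 9 genes that ERK signalling is known to induce were followed across breast epithelial cells that do and do not carry an activated HRAS. The 9 are DUSP4, DUSP5, DUSP6, SPRY2, SPRY4, SPRED1, ETV4, ETV5 and PHLDA1. The 10 genes were chosen by symbol, for what is known of them, but with earlier results of these data known. All 10 were among the 13771 genes of the deposited expression table.

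The RNA came from 2 human lines, each transduced with lentivirus. MCF10A is a non-tumorigenic line of mammary epithelial cells. DCIS.COM belongs to the same lineage, having been derived from MCF10A cells into which a mutated HRAS had been introduced, and its xenografts form lesions that resemble ductal carcinoma in situ (DCIS). Each line received pCDH-HOTAIR, a vector that carries the long noncoding RNA HOTAIR, or pCDH-empty as control, and all cells were selected with puromycin at 10 µg/mL. RNA-seq was done on 2 libraries in each of the 4 groups MCF10A pCDH-empty, MCF10A pCDH-HOTAIR, DCIS.COM pCDH-empty and DCIS.COM pCDH-HOTAIR. MCF10A cells were grown in horse serum at 5% with epidermal growth factor (EGF) at 20 ng/mL, hydrocortisone, insulin and cholera toxin, whereas horse serum at 5% was the only supplement listed for DCIS.COM. Each line stands for its lineage alone, so that the HRAS allele, the medium and any other difference between the lines cannot be told apart. No label says that the 2 libraries of a group came from separate cultures, and p-values therefore measure the spread between libraries, which may be technical.

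RAS proteins are switches that bind GTP after a growth factor receptor is activated, and they start the kinase cascade from RAF through MEK to ERK. Activated ERK phosphorylates ETS transcription factors, which turn on genes that act back on the cascade. Sprouty and SPRED proteins hold back signalling between the receptor and RAF, and dual specificity phosphatases (DUSPs) remove the phosphates from ERK itself. Because these genes are switched on by the signal that they restrain, their transcripts are often read as a gauge of ERK output in breast and other epithelial cells.

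Promoter sequence is shown for the 4 genes with the largest differences between the lines among those with an entry in the RefSeq table of promoters (GRCh38.p14), which held 6 of the 10 genes. Each runs from 250 bases before to 50 bases after the start of the gene in that RefSeq table. It is printed 5′ to 3′ on the reverse strand, on which all 4 genes lie. The positions are chr11:535527-535826 for HRAS, chr5:142324198-142324497 for SPRY4, chr13:80341077-80341376 for SPRY2 and chr12:76031727-76032026 for PHLDA1. Capitals mark CCGGAA, a core that ETS factors bind, and GGGCGG, the GC box, on either strand.
HRAS: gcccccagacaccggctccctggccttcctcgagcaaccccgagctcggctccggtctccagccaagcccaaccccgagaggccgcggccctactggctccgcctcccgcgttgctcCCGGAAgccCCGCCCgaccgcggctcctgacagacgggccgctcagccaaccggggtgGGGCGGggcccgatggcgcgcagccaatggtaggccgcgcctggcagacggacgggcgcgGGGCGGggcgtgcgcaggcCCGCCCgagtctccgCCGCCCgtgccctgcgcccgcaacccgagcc
SPRY4: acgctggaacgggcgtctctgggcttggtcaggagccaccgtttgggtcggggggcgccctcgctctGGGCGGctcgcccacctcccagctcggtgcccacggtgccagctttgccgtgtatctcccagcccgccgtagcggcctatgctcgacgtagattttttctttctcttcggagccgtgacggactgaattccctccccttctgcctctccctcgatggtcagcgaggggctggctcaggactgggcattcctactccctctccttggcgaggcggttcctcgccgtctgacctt
SPRY2: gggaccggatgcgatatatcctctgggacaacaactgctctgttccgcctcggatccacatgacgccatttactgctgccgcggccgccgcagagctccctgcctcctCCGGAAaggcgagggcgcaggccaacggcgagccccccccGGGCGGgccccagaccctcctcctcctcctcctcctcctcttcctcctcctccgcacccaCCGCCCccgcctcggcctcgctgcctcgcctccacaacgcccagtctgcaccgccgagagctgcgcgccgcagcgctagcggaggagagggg
PHLDA1: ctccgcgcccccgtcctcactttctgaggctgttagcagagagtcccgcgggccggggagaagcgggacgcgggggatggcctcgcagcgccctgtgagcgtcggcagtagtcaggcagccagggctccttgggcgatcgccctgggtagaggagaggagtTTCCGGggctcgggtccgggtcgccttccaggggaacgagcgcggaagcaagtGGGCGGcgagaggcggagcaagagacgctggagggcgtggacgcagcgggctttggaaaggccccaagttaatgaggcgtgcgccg
The HRAS window held 1 ETS core and 5 GC boxes, SPRY2 held 1 and 2, PHLDA1 held 1 of each, and SPRY4 held a GC box and no ETS core. Over the 6 promoters, which add DUSP6 and SPRED1, the ETS core was found in 3 and the GC box in 5. The same letters were found in 29.7% and 69.4% of the 10679 promoters matched to genes of the table. The AP1 motif TGANTCA and the cAMP response element TGACGTCA were in none of the 6, and in 4.74% and 3.27% of all promoters. None of the printed matches overlapped another.

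The deposited values are log2 CPM, the log2 of read counts scaled for library size (CPM) with a small prior, and whole reads were recovered from them for every gene. The libraries held 19306864 to 34884841 reads. DCIS.COM pCDH-empty 1 stood apart: transcripts of RN7SL1 and RN7SL2, a pair of noncoding RNA genes, made up 18.9% of its reads and 11.1% to 15.0% elsewhere. The median SD of a gene between the 2 libraries was 0.15 log2 units in this group and 0.05 to 0.06 in the other 3. HOTAIR had 45 and 40 reads in MCF10A pCDH-empty, 4614 and 4827 in MCF10A pCDH-HOTAIR, 119 and 140 in DCIS.COM pCDH-empty, and 7166 and 6385 in DCIS.COM pCDH-HOTAIR, replicate 1 first. The epithelial markers EPCAM, CDH1 and KRT18 were all in the table, as were the basal markers KRT5, KRT14, KRT17 and TP63, whereas none of 4 fibroblast markers was, nor PTPRC and CD3E of leukocytes or CDH5 and VWF of endothelium. Of the same lists CD68 was measured, at 19.6 to 23.9 CPM in MCF10A and 4.29 to 5.89 CPM in DCIS.COM, as was PECAM1, at 1.70 to 2.69 and 10.1 to 13.3 CPM. The summed basal markers were 8930 to 10200 CPM in MCF10A and 1240 to 1580 CPM in DCIS.COM, and less RNA per cell cannot be told apart from fewer cells of a type. TP63, a basal transcription factor, went the other way from that sum and was called higher in DCIS.COM, by 0.75 on the log2 scale between the pCDH-empty groups and 0.77 between the pCDH-HOTAIR groups. The summed epithelial markers were 997 to 1130 CPM in MCF10A and 2310 to 2790 CPM in DCIS.COM, with EPCAM and KRT18 higher in DCIS.COM and CDH1 at -0.59 on the log2 scale with the empty vector. The part of these differences in the results below was not tested.

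The first comparison asked how the 10 transcripts differ between the lines. In each of the 10 genes, all 4 DCIS.COM libraries were higher than all 4 MCF10A libraries, an order found in 34.6% of all genes. The opposite order was found in 35.6%, so that the lines did not overlap in 70.2% of genes. The difference between the lines was tested with limma within each vector, and a gene was called at an adjusted p-value (Benjamini-Hochberg, over all 13771 genes) under 0.05 with a fold change of at least 1.5. Between the pCDH-empty libraries, 8 of the 10 genes were called higher in DCIS.COM and none lower, while 22.5% of all genes were called higher and 23.8% lower, 46.3% in all. Between the pCDH-HOTAIR libraries the count was again 8 higher and none lower, against 22.0% and 21.7% of all genes, 43.7% in all. The median log2 fold change of the 10 genes was 1.57 with the empty vector and 1.76 with HOTAIR, whereas the median of all genes was -0.0001 and 0.0035. The plot of log2 CPM by library shows every value.

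**Figure D1:**
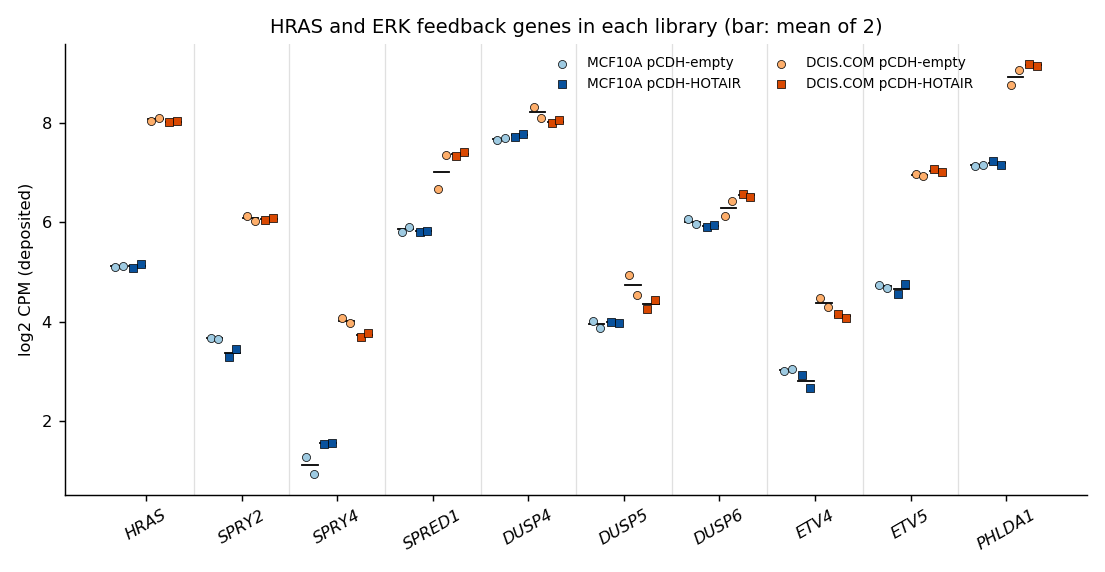
Deposited log2 CPM (vertical axis) of HRAS and the 9 ERK feedback genes in each of the 8 libraries, with points for libraries and bars for the mean of the 2 libraries of a group. The DCIS.COM points lie above the MCF10A points in all 10 genes, narrowly in DUSP6 and widely in HRAS, SPRY2, SPRY4 and ETV5.

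HRAS, the RAS protein that the lineage carries in mutated form, had the highest fitted difference of the 10 with either vector. With the empty vector SPRY4 was close to it, and without MCF10A pCDH-empty 1 the log2 fold change was 3.09 for SPRY4 and 2.94 for HRAS. HRAS lies on chromosome 11 from 532242 to 537321 on the reverse strand (GENCODE 44 on GRCh37, the build of the deposited counts). Its log2 CPM was 5.11 and 5.13 in MCF10A pCDH-empty, 5.09 and 5.16 in MCF10A pCDH-HOTAIR, 8.04 and 8.10 in DCIS.COM pCDH-empty, and 8.01 and 8.04 in DCIS.COM pCDH-HOTAIR. No MCF10A library came near any DCIS.COM library, and libraries of a line were almost level. The fold change was 7.74 with the empty vector (log2 2.95, SE 0.06, 95% confidence interval 2.81 to 3.09, limma adjusted p = 1.51e-08) and 7.45 with HOTAIR (log2 2.90, adjusted p = 1.71e-08). The depth behind these values was 658 to 1071 reads in MCF10A and 7353 to 9155 reads in DCIS.COM. Reads from the introduced copy and from the cell's own HRAS gene count toward the same gene, and the table does not separate them. Among all 13771 genes, 3.85% had a log2 fold change as high as that of HRAS with the empty vector.

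NRAS, another RAS gene, lay lower in every DCIS.COM library than in any MCF10A library. Its log2 CPM was 6.85 and 6.83 in MCF10A pCDH-empty, 6.68 and 6.76 in MCF10A pCDH-HOTAIR, 5.72 and 6.24 in DCIS.COM pCDH-empty, and 6.29 and 6.32 in DCIS.COM pCDH-HOTAIR. The lowest value was that of DCIS.COM pCDH-empty 1. NRAS was called lower with the empty vector (log2 fold change -0.86, limma adjusted p = 0.00095, and -0.60 without that library), and its value with HOTAIR was -0.41 (adjusted p = 0.0358), under the fold threshold.

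Per kilobase of annotated exon, the transcript level of HRAS was 14.2 CPM in MCF10A pCDH-empty and 110.0 CPM in DCIS.COM pCDH-empty, and that of NRAS was 26.5 and 14.8. HRAS thus stood below NRAS in MCF10A and far above it in DCIS.COM. Its share of the summed level of the 2 genes was 35.0% in MCF10A pCDH-empty and 37.1% in MCF10A pCDH-HOTAIR, against 88.2% and 85.4% in DCIS.COM. The order in MCF10A depends on the length assigned to each gene: with the length of the canonical transcript in place of all annotated exons, HRAS held 55.0% and 57.2% there, and 94.4% and 93.0% in DCIS.COM.

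**Figure D2:**
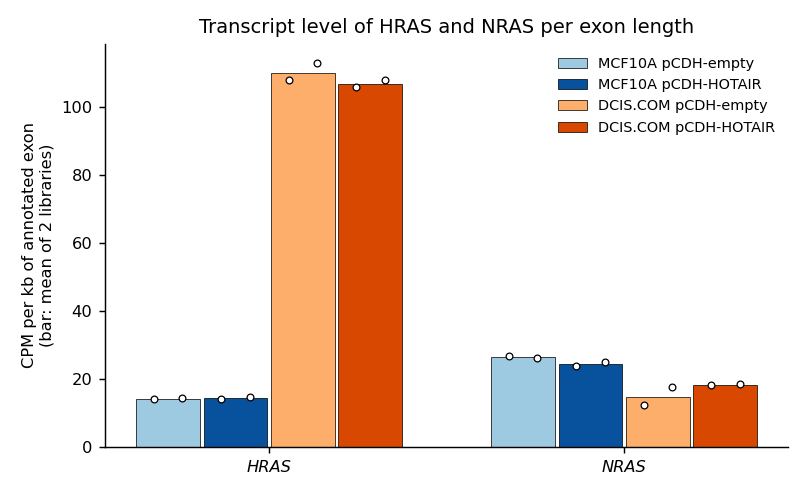
Transcript level of HRAS and NRAS in CPM per kilobase of annotated exon (vertical axis, from 0), with bars for the mean of the 2 libraries of a group and points for the libraries. HRAS reached 110.0 in DCIS.COM pCDH-empty against 14.2 in MCF10A pCDH-empty, whereas NRAS was lower in DCIS.COM.

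Among the inhibitors that act upstream of RAF, SPRY2, SPRY4 and SPRED1 were each called higher in DCIS.COM with either vector. SPRY4, a sprouty protein, was the scarcest of the 10 transcripts. Its log2 CPM was 1.29 and 0.94 in MCF10A pCDH-empty, 1.54 and 1.57 in MCF10A pCDH-HOTAIR, 4.07 and 3.97 in DCIS.COM pCDH-empty, and 3.69 and 3.77 in DCIS.COM pCDH-HOTAIR. The lowest DCIS.COM library stood far above the highest MCF10A library. The log2 fold change was 2.91 (SE 0.14, interval 2.58 to 3.24, limma adjusted p = 6.71e-07) with the empty vector and 2.18 (adjusted p = 3.58e-06) with HOTAIR. Only 49 to 74 reads in MCF10A stood behind it, against 419 to 504 in DCIS.COM.

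SPRY2, the sprouty protein whose promoter with an ETS core is printed above, had a log2 CPM of 3.68 and 3.66 in MCF10A pCDH-empty, 3.28 and 3.45 in MCF10A pCDH-HOTAIR, 6.12 and 6.03 in DCIS.COM pCDH-empty, and 6.04 and 6.09 in DCIS.COM pCDH-HOTAIR. The DCIS.COM libraries were close to level and all lay far above MCF10A. The log2 fold change was 2.41 (SE 0.08, limma adjusted p = 1.2e-07) with the empty vector and 2.70 (adjusted p = 7.37e-08) with HOTAIR.

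SPRED1, which brings the RAS inactivator neurofibromin to the membrane, had a log2 CPM of 5.81, 5.91, 5.80 and 5.83 in MCF10A, 6.66 and 7.35 in DCIS.COM pCDH-empty, and 7.33 and 7.42 in DCIS.COM pCDH-HOTAIR. The value of 6.66 belonged to DCIS.COM pCDH-empty 1, which was low for this gene and still above every MCF10A library. The log2 fold change was 1.15 (SE 0.19, limma adjusted p = 0.000796) with the empty vector, 1.49 when that library was left out, and 1.56 (adjusted p = 0.000138) with HOTAIR.

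The phosphatases DUSP4, DUSP5 and DUSP6 had the smallest differences. DUSP6, a cytoplasmic phosphatase that acts on ERK, had a log2 CPM of 6.06 and 5.96 in MCF10A pCDH-empty, 5.91 and 5.95 in MCF10A pCDH-HOTAIR, 6.13 and 6.43 in DCIS.COM pCDH-empty, and 6.57 and 6.50 in DCIS.COM pCDH-HOTAIR. The gap between the highest MCF10A and the lowest DCIS.COM library was the narrowest of the phosphatases, and that DCIS.COM library was pCDH-empty 1. The log2 fold change was 0.27 with the empty vector (limma adjusted p = 0.0425), under the fold threshold. It was 0.42 without DCIS.COM pCDH-empty 1 and 0.12 without DCIS.COM pCDH-empty 2. Without MCF10A pCDH-empty 1 or 2 it was 0.32 or 0.22. Its limma adjusted p-value stayed under 0.05 without DCIS.COM pCDH-empty 1. It did not when any other library was left out, even a pCDH-HOTAIR library, which left the estimate unchanged. With HOTAIR the log2 fold change was 0.61 (limma adjusted p = 0.000871), which was called. That call was lost, at a log2 fold change of 0.57, when DCIS.COM pCDH-HOTAIR 1 was left out.

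DUSP4, a nuclear phosphatase of MAP kinases, had a log2 CPM of 7.66, 7.70, 7.72 and 7.77 in MCF10A, 8.32 and 8.09 in DCIS.COM pCDH-empty, and 7.99 and 8.06 in DCIS.COM pCDH-HOTAIR. Every DCIS.COM library was higher, but by less than the fold threshold with either vector (log2 fold change 0.53 and 0.28, limma adjusted p = 0.000641 and 0.0178). Without DCIS.COM pCDH-empty 2 the value was 0.64 and was called.

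DUSP5, the nuclear phosphatase for ERK, had a log2 CPM of 4.02 and 3.87 in MCF10A pCDH-empty, 3.99 and 3.98 in MCF10A pCDH-HOTAIR, 4.94 and 4.54 in DCIS.COM pCDH-empty, and 4.27 and 4.44 in DCIS.COM pCDH-HOTAIR. The highest value was that of DCIS.COM pCDH-empty 1. The log2 fold change of 0.80 with the empty vector was called (SE 0.14, limma adjusted p = 0.00115) and was 0.60 without that library. With HOTAIR the value was 0.37 (adjusted p = 0.0471), under the fold threshold.

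The ETS factors ETV4 and ETV5, of the PEA3 subfamily, are turned on by ERK and in turn activate ERK target genes. ETV5 had a log2 CPM of 4.74 and 4.69 in MCF10A pCDH-empty, 4.56 and 4.75 in MCF10A pCDH-HOTAIR, 6.97 and 6.93 in DCIS.COM pCDH-empty, and 7.06 and 7.01 in DCIS.COM pCDH-HOTAIR. The libraries of each line were close together, and the log2 fold change was 2.24 (SE 0.08, limma adjusted p = 1.33e-07) with the empty vector and 2.38 (adjusted p = 1.03e-07) with HOTAIR. ETV5 shares 4651 bases with DGKG, which lies on the same strand and was also called higher (log2 fold change 2.83 and 2.68). How reads on shared bases were assigned was not stated, so that the ETV5 value is uncertain to that extent. DGKG was far less abundant than ETV5 in either line.

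ETV4 had a log2 CPM of 3.01 and 3.04 in MCF10A pCDH-empty, 2.94 and 2.67 in MCF10A pCDH-HOTAIR, 4.47 and 4.30 in DCIS.COM pCDH-empty, and 4.15 and 4.08 in DCIS.COM pCDH-HOTAIR. The lines did not overlap, and the log2 fold change was 1.36 (SE 0.12, limma adjusted p = 2.02e-05) with the empty vector and 1.31 (adjusted p = 2.57e-05) with HOTAIR. The annotated span of ETV4 lies inside that of DHX8 on the opposite strand, and whether strand was used in counting was not stated. DHX8 itself was not called between the lines (log2 fold change 0.03 and -0.18).

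PHLDA1, a pleckstrin homology-like protein induced by growth factors, was among the most abundant of the 10. Its log2 CPM was 7.12 and 7.16 in MCF10A pCDH-empty, 7.23 and 7.15 in MCF10A pCDH-HOTAIR, 8.77 and 9.07 in DCIS.COM pCDH-empty, and 9.17 and 9.15 in DCIS.COM pCDH-HOTAIR. The lowest DCIS.COM library was pCDH-empty 1, which still exceeded all MCF10A libraries. The log2 fold change was 1.78 (SE 0.10, limma adjusted p = 1.26e-06) with the empty vector, 1.93 without that library, and 1.97 (adjusted p = 6.99e-07) with HOTAIR.

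**Figure D3:**
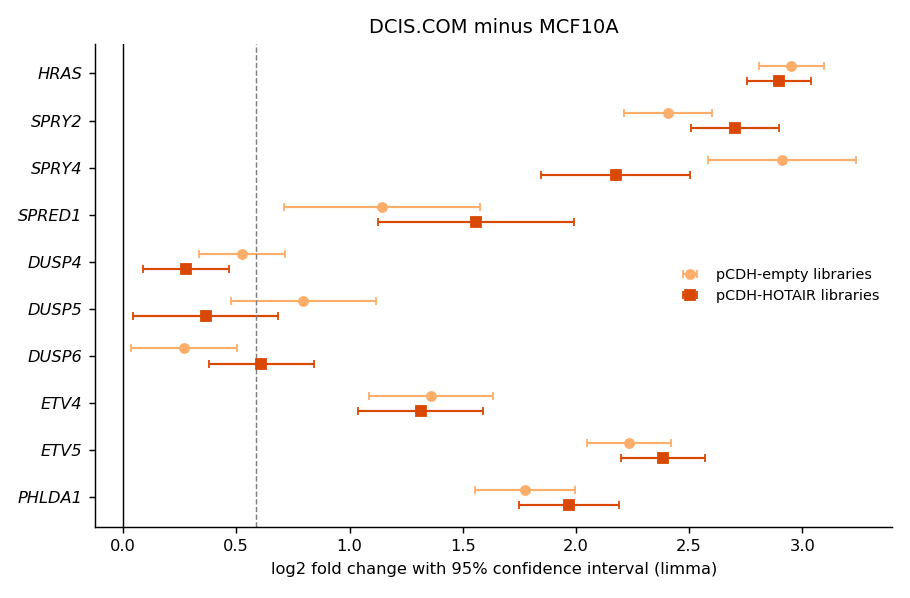
Log2 fold change of each gene between the lines, DCIS.COM minus MCF10A (horizontal axis), with 95% confidence intervals from limma, in pCDH-empty libraries (circles) and pCDH-HOTAIR libraries (squares). The dashed line marks the fold threshold of 1.5, and all 20 estimates lie above 0, with those of the DUSP genes nearest to the line.

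DCIS.COM pCDH-empty 1 lay above the other 3 DCIS.COM libraries in 5 of the 10 genes (DUSP4, DUSP5, SPRY2, SPRY4 and ETV4) and below them in 3 (DUSP6, SPRED1 and PHLDA1). Over all genes it lay above the other 3 in 39.2% and below them in 38.5%. Without it, the log2 fold changes of the 10 genes between the pCDH-empty libraries ran from 0.41 to 2.98. DUSP4 and DUSP6, at 0.41 and 0.42, lay under the fold threshold. The group means compared between the pCDH-HOTAIR libraries do not contain DCIS.COM pCDH-empty 1. The SEs and p-values of that comparison do, because the fit shares the spread of each gene over all 8 libraries. The same holds for the HOTAIR difference in MCF10A.

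Per kilobase of annotated exon, over the 4 libraries of a line, the most abundant of the 10 in MCF10A was DUSP4 at 28.9 CPM, followed by PHLDA1 at 24.3, DUSP6 at 16.2 and HRAS at 14.3. In DCIS.COM the order began with HRAS at 109 CPM per kilobase and PHLDA1 at 89.4, ahead of DUSP4 at 38.3. DUSP6 (22.2), ETV5 (22.1), SPRY2 (20.9) and SPRED1 (19.2) came next and lay close together. SPRY4 was the lowest in either line, at 0.38 and 2.24 CPM per kilobase. Part of this order depended on the length used. Per kilobase of the canonical transcript HRAS was second in MCF10A, at 32.5 CPM after DUSP4 at 37.8, and in DCIS.COM ETV5 (31.2) and SPRY2 (29.4) came before DUSP6 (23.6). HRAS and PHLDA1 stayed the highest pair in DCIS.COM, and SPRY4 the lowest in either line, by both lengths.

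The other genes of the pathway were taken from 7 lists of 76 genes, of which 68 were in the table. Of the 68, 16 were called higher and 22 lower in DCIS.COM with the empty vector (median log2 fold change -0.19). With HOTAIR 17 were called higher and 20 lower (median -0.19). Over all genes, 22.5% were called higher and 23.8% lower with the empty vector, and 22.0% and 21.7% with HOTAIR. The counts of the lists below stand beside these same shares. Without DCIS.COM pCDH-empty 1 the counts with the empty vector were 17 and 22. Within each list, up to 3 genes with the largest called differences between the pCDH-empty libraries are named.

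The other sprouty, SPRED and feedback inhibitors were the list that lay nearest to the 10, with 6 of 9 called higher and 2 lower with the empty vector and a median log2 fold change of 1.86. LRIG1, which promotes the breakdown of EGF receptors, was 5.06 higher on the log2 scale, with 21 to 45 reads in MCF10A and 1316 to 1535 in DCIS.COM. SPRY1, another sprouty protein, was 3.90 higher (30 to 41 against 508 to 664 reads), and ERRFI1, an inhibitor of EGF receptor kinase activity, was 2.07 higher. SPRY3 and RASSF1 were the genes called lower, at -1.01 and -1.57, and are named because the count was small. SPRY3 was not called without DCIS.COM pCDH-empty 1. With HOTAIR, 6 were higher and RASSF1 alone was lower.

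The other DUSP genes went mostly the opposite way, with 1 of 8 called higher and 4 lower with the empty vector, a median log2 fold change of -0.88, and 6 lower without DCIS.COM pCDH-empty 1. DUSP1, an immediate early phosphatase that acts mainly on the stress kinases p38 and JNK, had 3216 to 4560 reads in MCF10A and 107 to 174 in DCIS.COM, a log2 fold change of -4.84. DUSP10, which also prefers p38 and JNK, was at -2.80, and DUSP2, a nuclear phosphatase, was the gene called higher, at 1.24.

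Genes of the other RAS proteins and exchange factors were divided, with 3 of 9 called higher and 4 lower with the empty vector (3 and 2 with HOTAIR). RASGRP1, an exchange factor that loads RAS with GTP, had 6 to 15 reads in MCF10A and 541 to 1030 in DCIS.COM, a log2 fold change of 5.51. RASGRP3, of the same family, was 2.06 higher but had only 4 to 9 reads in MCF10A and 28 to 56 in DCIS.COM. RRAS, a RAS-related protein, was at -2.48. Among the GTPase activating proteins, which switch RAS off, 2 of 8 were called higher and 2 lower. RASAL1 was 2.72 higher, RASA3 was at -2.05 and RASA2 at -0.80, and the RASA2 value with HOTAIR, -0.57, was under the fold threshold.

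No gene of the RAF-MEK-ERK cascade and its scaffolds was called higher with the empty vector, and 5 of 13 were called lower. RPS6KA2, a kinase downstream of ERK, was at -2.75, LAMTOR3, a scaffold for MEK and ERK, at -1.16 (-0.77 without DCIS.COM pCDH-empty 1), and MAP2K1, which encodes MEK1, at -1.06. With HOTAIR 4 were lower, and KSR1, a scaffold named here because it was the only gene called higher, was at 0.60 after -0.62 with the empty vector, on 22 to 72 reads per library. Of the 7 adaptors upstream of RAS only GAB1, a docking protein of growth factor receptors, was called with the empty vector, at -1.77.

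The other ERK output genes were divided evenly, with 4 of 14 called higher and 4 lower with the empty vector and 4 and 5 with HOTAIR. LIF, a cytokine, was 4.61 higher on the log2 scale (138 to 213 reads in MCF10A and 4464 to 4922 in DCIS.COM), and ETV1, the third factor of the PEA3 subfamily, was 3.16 higher. FOS, an immediate early factor of AP1, was at -3.15, with 262 to 418 reads in MCF10A and 41 to 80 in DCIS.COM.

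**Figure D4:**
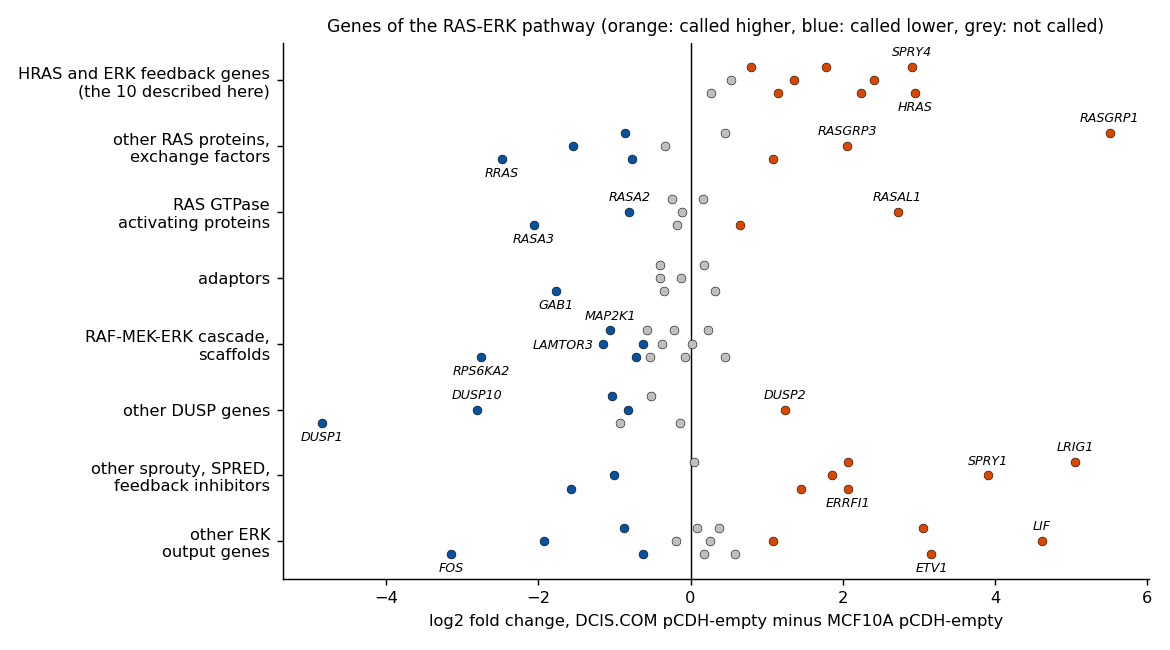
Log2 fold change between the pCDH-empty libraries, DCIS.COM minus MCF10A (horizontal axis), of the 10 genes and of the genes of 7 pathway lists, a point for each gene. Orange points were called higher, blue points lower and grey points were not called, and the 10 genes and the other sprouty, SPRED and feedback inhibitors lie mostly to the right, whereas the other DUSP genes lie mostly to the left.

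The next comparison asked whether HOTAIR changed the 10 transcripts within a line. None of the 10 was called in MCF10A and none in DCIS.COM, where limma called 3 genes in all (0.0218%) and 12 genes in all (0.0871%). At an unadjusted p-value under 0.05 there were 2 of the 10 in MCF10A (1003 of all genes) and 3 in DCIS.COM (2409 of all genes). With limma-voom on the recovered reads none of the 10 was called in either line. The fold changes in MCF10A ran from -0.30 to 0.44 and those in DCIS.COM from -0.39 to 0.37 on the log2 scale. The plot of the vector difference shows each estimate.

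**Figure D5:**
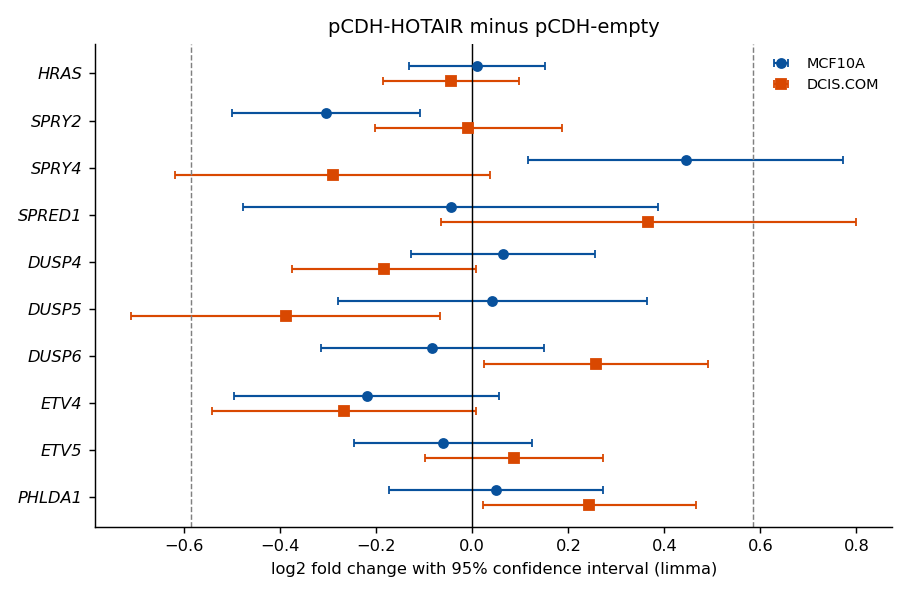
Log2 fold change of each gene between vectors, pCDH-HOTAIR minus pCDH-empty (horizontal axis), with 95% confidence intervals from limma, in MCF10A (circles) and DCIS.COM (squares). Dashed lines mark the fold threshold of 1.5 in each direction, and none of the 20 estimates lies beyond them.

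HRAS had the tightest estimates. Its log2 fold change was 0.01 in MCF10A (interval -0.13 to 0.15) and -0.04 in DCIS.COM (interval -0.19 to 0.10), and the 2 groups overlapped in each line. SPRY4 had an estimate of 0.44 in MCF10A (interval 0.12 to 0.77, limma adjusted p = 0.505), which was 0.62 without MCF10A pCDH-empty 1 and 0.27 without MCF10A pCDH-empty 2. Both of its MCF10A pCDH-HOTAIR libraries lay above both pCDH-empty libraries, at 55 and 58 reads against 74 and 49 in deeper libraries. SPRY2 was at -0.30 in MCF10A (interval -0.50 to -0.11, adjusted p = 0.414), again without overlap. The 2 groups did not overlap in 5 of the 10 genes in MCF10A, and they did not overlap in 47.2% of all genes.

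In DCIS.COM the groups did not overlap in 7 of the 10 genes, against 49.2% of all genes. The estimates at an unadjusted p-value under 0.05 were DUSP5 at -0.39 (interval -0.71 to -0.07, limma adjusted p = 0.253), DUSP6 at 0.26 (adjusted p = 0.268) and PHLDA1 at 0.24 (adjusted p = 0.269). Each moved toward 0 when DCIS.COM pCDH-empty 1 was left out, to -0.19, 0.11 and 0.09. SPRED1 was at 0.37 with a wide interval of -0.07 to 0.80, and at 0.02 without that library. Without DCIS.COM pCDH-empty 2, which leaves the library that stood apart as the only empty-vector library of the line, DUSP5 (-0.59) and SPRED1 (0.71) were called, and so were 1403 genes in all.

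The last comparison set the HOTAIR difference in DCIS.COM against that in MCF10A (the interaction, with no fold threshold). None of the 10 was called, and limma called 6 genes in all (0.0436%). At an unadjusted p-value under 0.05 there were 3 of the 10 (1452 of all genes), namely SPRY4 at -0.73 (interval -1.20 to -0.27, adjusted p = 0.375), DUSP6 at 0.34 (adjusted p = 0.465) and SPRY2 at 0.30 (adjusted p = 0.458). The DUSP6 difference was 0.19 without DCIS.COM pCDH-empty 1 and 0.49 without DCIS.COM pCDH-empty 2 (limma adjusted p = 0.333 and 0.00205). The SPRY4 value combined an estimate of 0.44 in MCF10A with -0.29 in DCIS.COM. Without DCIS.COM pCDH-empty 2, 6 of the 10 and 4414 genes in all were called.

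The genes with the profile most like that of HRAS over the 8 libraries were found by the Euclidean distance of log2 CPM, each profile taken about its own mean. KCNN4, a calcium-activated potassium channel, was nearest (distance 0.22), followed by TMEM63A (0.29) and UBASH3B (0.30). KCNN4 had a mean log2 CPM of 6.25 in MCF10A and 9.08 in DCIS.COM. For DUSP6 the nearest were TIPRL (0.12), RIT1 (0.14), itself a RAS-related GTPase, and ELOVL5 (0.15), and RIT1 had a mean log2 CPM of 4.53 and 4.93.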

How the data were processed

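The authors aligned paired reads of 76 nt from ScriptSeq libraries to hg19 with Rsubread, counted them on UCSC known genes with featureCounts, and deposited log2 CPM values normalized with edgeR, per the paper's methods and the submitters' processing notes (versions not given in the sources used here). Each of the 13771 genes passed 0.5 CPM in 2 libraries or more, 343 had no symbol, and no column of per-sample values was left unused. The values of every library started from 0.0717 CPM, the prior, and were spaced by the worth of a single read, so that whole reads were recovered for 100.0% of values (tolerance 0.01 read).

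Differences were tested here with limma 3.58.1 in R 4.3.3 on the log2 values as deposited (4 group means, all 8 libraries, mean-variance trend, 4 residual degrees of freedom per gene). A call needed a fold change of at least 1.5 and a p-value under 0.05 after Benjamini-Hochberg adjustment, with no fold threshold for the interaction. Differences are therefore on the scale of log2 of CPM plus the prior, which understates those of scarce genes. The fit was tested on simulated data. Intervals are 95% confidence intervals. Python 3.11.15, pandas 2.3.3 and numpy 2.4.6 were used for the rest.

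The 10 genes and the lists were chosen with earlier results of these data known. The text names the 10 genes, HOTAIR and NRAS, up to 3 genes a pathway list with the largest called difference between the pCDH-empty libraries, and the 3 genes nearest to HRAS and DUSP6. Other names were chosen after their values were seen, and 1 gene of the rule is not reported here. Exon lengths, GC content and positions came from GENCODE 44 on GRCh37 (known for 13148 genes, 95.5%).

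Alternatives were offsets of 0.1 and 1, a mean CPM of at least 2, median centring, quantile normalization, no trend, separate fits, a block on the replicate number, limma-voom on recovered reads, other fold thresholds, a loess correction on GC content (span 0.4) and each library left out. The pathway lists without DCIS.COM pCDH-empty 1 were added after seeing the data.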

Additional observations from a re-analysis of the deposited data

Results flagged for a closer look

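HOTAIR itself was raised less in DCIS.COM than in MCF10A. The HOTAIR effect on its own log2 CPM was 7.28 in MCF10A and 5.41 in DCIS.COM, a difference of -1.87 (limma interaction, adjusted p = 0.0208, 2 libraries a group). The difference was negative under all 17 alternatives, from -2.07 to -1.46, but past the threshold under 8 of them only. The call was lost with no trend (adjusted p = 0.132), with the replicate block (0.0592), with limma-voom (0.0507) and without any 1 MCF10A or DCIS.COM pCDH-HOTAIR library (0.133 to 0.376). It was kept without either DCIS.COM pCDH-empty library (2.36e-05 and 8.72e-05). With pCDH-empty the transcript was 1.58 higher in DCIS.COM on the log2 scale, and with pCDH-HOTAIR the difference was -0.29 (limma adjusted p = 0.0694). None of the 10 genes had an interaction past the threshold.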

How the results depend on the processing

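The line comparisons changed little. Each of the 10 genes was higher in DCIS.COM with either vector under every alternative run, and 8 of 10 were called except as follows. With no fold threshold 10 and 10 were called, along with 9394 and 9024 of all 13771 genes. With a log2 fold change of at least 1.5 there were 5 of 10 with the empty vector, all higher. Of all genes 2418 were then called, 1101 of them higher (8.0% of all genes). With HOTAIR there were 6 of 10, all higher, and 2357 of all genes, 1107 of them higher (8.04%). Leaving out a library gave 8 to 9 with the empty vector and 7 to 8 with HOTAIR. The counts of genes called for HOTAIR (3 in MCF10A, 12 in DCIS.COM, 6 for the interaction) moved more. An offset of 1 gave 6 in MCF10A and 10 for the interaction, and no trend gave 6 in DCIS.COM and 0 for the interaction (1414 at an unadjusted p-value under 0.05). Separate fits gave 1 in MCF10A and 0 in DCIS.COM (1203 unadjusted), limma-voom gave 5 in MCF10A, a log2 fold change of at least 1.5 left 1 and 1, and the GC correction gave 16, 52 and 23. With the replicate number as a block the counts were 20 in DCIS.COM and 0 for the interaction (1342 unadjusted). Libraries with the same number share only that number: the correlation of their deviations ran from -0.016 to 0.066, and the block changed no call among the 10 genes. Leaving out a library gave 1 to 51 in MCF10A, 1 to 1403 in DCIS.COM (0 to 2 of the 10 genes) and 0 to 4414 for the interaction (0 to 6 of the 10). A group left with 1 library was assumed to vary like the others. The 51 came when either library of DCIS.COM pCDH-empty was left out. Of these, leaving out replicate 1 gave 60 and 89 in DCIS.COM and the interaction, and leaving out replicate 2 gave 1403 and 4414. Without a MCF10A library the counts were 1, 5 and 0, and without a DCIS.COM pCDH-HOTAIR library 1, 1 and 0 (735 to 1004 unadjusted for the interaction). The estimates that changed sign were all small HOTAIR differences. Under the GC correction these were HRAS at -0.0373 and SPRED1 at 0.0058 in MCF10A, HRAS at 0.0302 and SPRY2 at 0.0371 in DCIS.COM, and HRAS at 0.0675 and ETV4 at 0.0678 for the interaction. Over the fits that leave out a library, HRAS ran from -0.027 to 0.0457, DUSP5 from -0.0375 to 0.121, SPRED1 from -0.0935 to 0.0031 and ETV5 from -0.16 to 0.0369 in MCF10A, SPRY2 from -0.053 to 0.0364 in DCIS.COM, and ETV4 from -0.178 to 0.0863 for the interaction. Except where a left-out library or a stricter threshold is itself the change, the cause was not tested. Depth limits SPRY4 in MCF10A, with 49 to 74 reads.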
